A study of Mus musculus with 24 samples.

Results

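Ligands and enzymes through which tumour cells restrain T cells, NK cells or phagocytes were followed in the RNA of the mouse mammary carcinoma line EO771. The 7 genes were Cd274 (PD-L1), Cd276 (B7-H3), Cd47, Pvr (CD155), Nectin2 (CD112), Lgals9 (galectin-9) and Nt5e (CD73). They were taken by symbol from the 13915 genes listed in both count tables of the study, and the batch 1 table listed 55471. All 7 were found in both batches and all 7 passed the filter on low counts in each fit. EO771 arose as a spontaneous mammary tumour of C57BL/6 mice. Every derivative carried a retroviral pLNCX2 construct and was grown in culture. X2 carried the vector control. CCR7 overexpressed the mouse chemokine receptor Ccr7 together with tdTomato, a reporter that the vector control carried too. The CCR7-transduced cells were sorted by surface podoplanin (PDPN), which had appeared spontaneously. CCR7-PDPN is the sort high in PDPN, and CCR7 here is the PDPN-negative sort, with deposited columns named as PDPN minus cells. X2-PDPN was sorted for high PDPN from the vector control. PDPN-sorted below means the sort high in PDPN. No derivative was a single clone, the PDPN-sorted populations were enriched and not pure, and there were no untransduced cells among the libraries. CCR7 was sequenced in batch 1 only and X2-PDPN in batch 2 only, while X2 and CCR7-PDPN were in both. Each derivative had 4 technical replicates of the RNA in a batch, so p-values measure the technical spread only.

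PD-L1 on a tumour cell engages PD-1 and damps T cell signalling, while B7-H3 is a related B7 family protein whose receptor is not settled. CD47 engages SIRPα on phagocytes and acts as a signal against engulfment. Pvr and Nectin2 are adhesion molecules of the nectin family that bind the inhibitory receptor TIGIT and the activating receptor DNAM-1 (Cd226). Galectin-9 binds glycans, among others those of TIM-3, and CD73 converts extracellular AMP to adenosine, which acts on lymphocytes through adenosine receptors.

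Ccr7 averaged at most 1.25 TPM in X2 and X2-PDPN and 5327 to 5911 TPM in the 3 groups with the construct. Pdpn averaged 0.128 to 0.855 TPM in X2 and CCR7 and 49.9 to 52.9 TPM in the PDPN-sorted groups, so both genes followed the labels. TPM is a level per length of exon, scaled to the same total in each library over the genes of both tables or, for the marker and gene lists, over all genes of the batch's table. Depth ran from 22275468 to 33395418 counts a library in batch 1 and from 22788542 to 35721027 counts in batch 2. CCR7 replicate 1 of batch 1 stood apart: the chi-square of its counts against the other 3 CCR7 libraries was 13.5 to 22.5 times its degrees of freedom, where no other pair of replicates exceeded 8.48. Fold changes of Cd47 and Pvr, which were lowest in it among the CCR7 libraries, are given with and without it. Those of the list genes are given with it only.

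Of the tumour cell markers, Vim and Krt8 were at 1848 to 2340 and 425 to 560 TPM as group means, while the epithelial genes Epcam and Krt18 had at most 2 and 9 counts in any batch 1 library. Of 10 leukocyte markers, 1 reached 1 TPM, the lysozyme gene Lyz2. The summed leukocyte list ranged in batch 1 from 18.4 to 21.6 TPM in X2, with 4.20 to 6.80 TPM in CCR7 libraries and 1.86 to 2.86 TPM in CCR7-PDPN libraries. In batch 2 it was 19.8 to 23.6 TPM for X2, 18.6 to 19.7 TPM for X2-PDPN and 1.21 to 2.11 TPM for CCR7-PDPN. Leaving out Lyz2 and Itgax, the other 8 markers, among them Ptprc, Cd3e, Cd8a, Nkg7, Itgam and Adgre1, had at most 8 counts in any batch 1 library and 0 of them was listed in batch 2. Lyz2 was thus lower in both derivatives with CCR7, where most of the ligands were lower too, and its log2 value in X2-PDPN against X2 was -0.19 ± 0.09 (SE, edgeR adjusted p 0.058). Its part in the results was not tested. Of 6 endothelial and stromal markers only Pdgfra and Pdgfrb reached 1 TPM in any group, with a summed list level of 94.4 to 124 TPM over all libraries, while Lum and Dcn had at most 3 counts in batch 1. The sum does not show opposite changes. In X2-PDPN against X2, 2 of the 4 tested were higher and 2 lower (edgeR adjusted p under 0.05), against 28.2% and 28.5% of all genes. In each direction 1 of them passed 1 on the log2 scale.

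Of the 7 genes Cd274 had the lowest level and Lgals9 the highest in all 6 groups. In X2 of batch 1 the mean levels were 4.65 ± 0.58 TPM for Cd274 and 325 TPM for Lgals9 (n = 4). Pvr followed at 153 TPM, Nectin2 at 93.6 TPM, Cd47 at 44.1 TPM, Cd276 at 27.5 TPM and Nt5e at 12.6 TPM. Lgals9 alone made up 49.2% of the summed TPM of the 7 genes. The sum was 661 ± 14 TPM (SD) in X2 of batch 1 and 663 ± 11 TPM in X2 of batch 2. The sum was lower in every other derivative, at 525 TPM in CCR7, 391 and 393 TPM in CCR7-PDPN of batches 1 and 2, and 432 TPM in X2-PDPN. RNA from a mixed culture cannot tell fewer expressing cells from less RNA per cell, and none of these values is a level of protein on the surface.

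**Figure D1:**
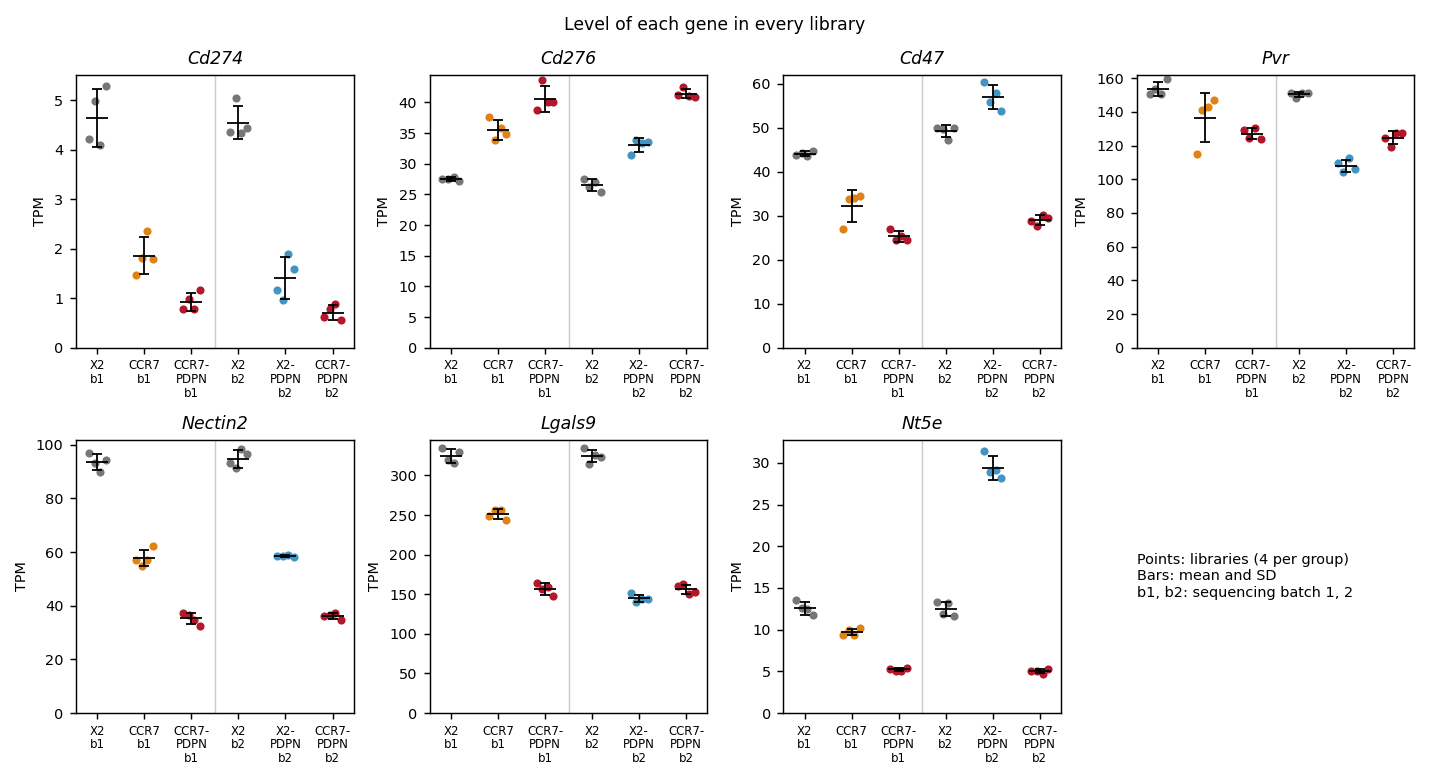
Level of each of the 7 genes in TPM (y axis, from 0) in each of the 24 libraries, by derivative and batch (x axis), with points for libraries and bars for the mean and SD of 4 libraries. Cd274 averages 4.65 and 4.55 TPM in X2 and under 2 TPM in every other group, and Nt5e is at 29.4 TPM in X2-PDPN but 5.23 and 5.01 TPM in CCR7-PDPN.

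Cd274 lies on chromosome 19 (GRCm38 chr19:29367455-29388095, plus strand), Lgals9 on chromosome 11 (chr11:78962974-78984946, minus strand). The 250 bases before the RefSeq start (GRCm38.p6) of each are shown. Both genes fell in all 3 derivatives, as did Nectin2 and Pvr, and a link between motifs and these changes was not tested. Interferon-stimulated response elements (ISRE) were searched on both strands as GAAA and GAAA with 2 bases between, and matches are in capitals.
Lgals9 upstream, chr11:78984925-78985174, minus strand: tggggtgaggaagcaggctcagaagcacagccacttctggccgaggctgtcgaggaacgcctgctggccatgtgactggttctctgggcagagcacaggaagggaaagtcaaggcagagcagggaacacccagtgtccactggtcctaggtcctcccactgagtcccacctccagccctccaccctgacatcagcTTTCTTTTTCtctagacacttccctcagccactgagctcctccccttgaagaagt
Cd274 upstream, chr19:29367188-29367437, plus strand: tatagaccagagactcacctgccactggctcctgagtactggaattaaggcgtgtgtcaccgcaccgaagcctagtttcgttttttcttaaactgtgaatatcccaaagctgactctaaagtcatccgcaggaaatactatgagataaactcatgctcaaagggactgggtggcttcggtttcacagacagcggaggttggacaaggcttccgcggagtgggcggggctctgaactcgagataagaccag

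Lgals9 held 2 ISRE matches in the window from 250 bases before to 50 bases after its start, TTTCTTTTTC from 55 bases before it and TTTCTGTTTC from 15 bases after it. The other members with a RefSeq promoter, Cd274, Cd276, Cd47, Nectin2 and Nt5e, held none, and 3.44% of 32851 mouse promoters of that length held one. Pvr was not matched. The gamma-activated site, searched as TTC and GAA with 3 bases between, was in none of the 6 promoters and in 8.30% of all. The hypoxia motif ACGTG, searched on both strands, was in those of Cd274 and Cd47 and in 19.6% of all, and the kappaB motif, GGG and CC with 5 bases between on either strand, in those of Cd276, Nectin2, Lgals9 and Nt5e and in 50.8% of all. A match is a string of letters and not a measured binding site, and looser forms of the motifs were not searched.

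The comparison of CCR7 with X2 asked what overexpression of the receptor went with in cells without PDPN. All 7 genes passed an adjusted p of 0.05 in the quasi-likelihood test of edgeR (Benjamini-Hochberg over 13261 genes), as did 49.3% of all genes tested. Cd276 was higher in CCR7 and the other 6 were lower, where 25.2% of all genes were called lower. The groups did not overlap for 7 of 7, against 44.1% of all genes. Only Cd274 fell by more than 1 on the log2 scale, a size that 3.18% of all genes reached downwards. Their median on the log2 scale was -0.38, against 0.00 over all genes. The 7 genes were chosen with earlier results of these data known. Shares and medians set against all genes, here and below, therefore describe the set and do not test it.

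In CCR7-PDPN against X2, 6 of the 7 genes were lower and 1 was higher in each batch by the same test. The background was 30.6% lower and 30.3% higher among 13261 genes in batch 1, and 32.8% lower and 32.0% higher among 13314 genes in batch 2. Cd274, Nectin2, Lgals9 and Nt5e fell by more than 1 in both batches, against 5.36% and 5.67% of all genes that fell so far, and the groups did not overlap for 7 of 7, against 58.7% and 57.5% of genes. The median over the 7 genes was -1.03 in batch 1 and -1.04 in batch 2, where all genes had medians of 0.00. The 2 batches repeat the same derivatives and are not independent cell populations, and the comparisons within a batch share its libraries, X2 among them. Their log2 fold changes differed by 0.34 ± 0.27 (SE) for Cd274 and by at most 0.08 in size for the other 6. No member and 0.00% of 13690 genes passed adjusted p 0.05 for that difference with edgeR, 0 of the 7 and 293 genes had an unadjusted p under 0.05, and DESeq2 gave 0 of 7 and 0 genes adjusted and 211 genes unadjusted.

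Cd274, the ligand of PD-1, fell furthest of the 7 genes in each comparison with X2. Its levels in X2 were 4.22, 5.00, 4.10 and 5.29 TPM in batch 1 and 4.37, 5.04, 4.34 and 4.44 TPM in batch 2. In CCR7 they were 1.47, 1.81, 2.37 and 1.79 TPM. CCR7-PDPN had 0.776, 0.983, 0.793 and 1.16 TPM in batch 1 and 0.628, 0.787, 0.876 and 0.558 TPM in batch 2, below every CCR7 library. X2-PDPN had 1.16, 0.971, 1.90 and 1.60 TPM, below every X2 library. The log2 fold change against X2 was -1.31 ± 0.15 (SE) in CCR7, -1.72 ± 0.15 in X2-PDPN, and -2.29 ± 0.17 and -2.63 ± 0.17 in CCR7-PDPN of batches 1 and 2 (edgeR adjusted p 1.9e-07, 2.3e-13, 1.0e-10 and 1.7e-17). CCR7-PDPN was also lower than CCR7 (log2 fold change -0.98 ± 0.19, edgeR adjusted p 3.3e-04) and lower than X2-PDPN (-0.91 ± 0.22, adjusted p 3.5e-04). These levels rest on few reads, 115 to 150 counts a library in X2 and 14 to 34 in CCR7-PDPN, and Cd274 had the widest error of the 7 genes in each comparison.

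Nectin2, on chromosome 7 (chr7:19716644-19750483, minus strand), fell by a similar amount with each label. X2 libraries had 96.9, 93.4, 89.9 and 94.4 TPM in batch 1 and 93.1, 91.2, 98.6 and 96.7 TPM in batch 2. CCR7 had 56.9, 54.9, 57.0 and 62.1 TPM, and X2-PDPN had 58.6, 58.4, 58.9 and 58.3 TPM. With both labels the level was lower again, at 37.4, 36.6, 34.8 and 32.5 TPM in batch 1 and 36.1, 36.5, 37.4 and 34.6 TPM in batch 2. The 3 groups of a batch did not overlap in either batch. The log2 fold change against X2 was -0.70 ± 0.04 in CCR7 and -0.70 ± 0.03 in X2-PDPN, and -1.38 ± 0.04 and -1.37 ± 0.04 in CCR7-PDPN (edgeR adjusted p 1.0e-11, 6.6e-22, 1.1e-16 and 3.8e-32). The PDPN difference was -0.68 ± 0.05 among cells with CCR7, and it differed from that among vector control cells by 0.03, with a 95% interval of -0.08 to 0.13 (adjusted p 0.74).

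Pvr lies on the same strand 153095 bases away from Nectin2 (chr7:19903578-19921160), with 13 listed genes between, and like Nectin2 binds TIGIT and DNAM-1. In the groups with CCR7 its difference from X2 was a smaller one, and in X2-PDPN it was nearer to that of Nectin2. X2 had 150, 153, 151 and 159 TPM in batch 1 and 151, 148, 151 and 151 TPM in batch 2. CCR7 had 115, 141, 143 and 147 TPM, the lowest in the replicate that stood apart. CCR7-PDPN had 129, 124, 131 and 124 TPM in batch 1 and 125, 119, 128 and 128 TPM in batch 2, and X2-PDPN had 110, 104, 112 and 106 TPM, the lowest group. Against X2 the log2 fold change was -0.48 ± 0.03 in X2-PDPN and -0.25 in CCR7-PDPN of both batches (SE 0.06 and 0.03, edgeR adjusted p 2.3e-19, 0.0014 and 8.4e-11). In CCR7 against X2 it was -0.17 ± 0.06 (adjusted p 0.020), and -0.10 ± 0.03 (adjusted p 0.0042) without CCR7 replicate 1. That call was lost without X2 replicate 4 (-0.16, adjusted p 0.053) and in a fit of the 2 groups alone (-0.17, adjusted p 0.052).

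CCR7-PDPN and CCR7 overlapped in Pvr, with a log2 fold change of -0.08 ± 0.06 and a 95% interval of -0.19 to 0.03 (edgeR adjusted p 0.31). Without CCR7 replicate 1 it was -0.15 ± 0.03 and passed the threshold (adjusted p 7.6e-05). The ratio of Pvr to Nectin2 in TPM was 1.64 ± 0.06 (SD) in X2 of batch 1, 2.37 ± 0.24 in CCR7 and 3.61 ± 0.21 in CCR7-PDPN. In batch 2 it was 1.59 ± 0.05 for X2, 1.85 ± 0.05 for X2-PDPN and 3.45 ± 0.18 for CCR7-PDPN, and the groups of a batch did not overlap. The genes that annotation places across Nectin2 or Pvr on the opposite strand had at most 39 counts in a library.

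**Figure D2:**
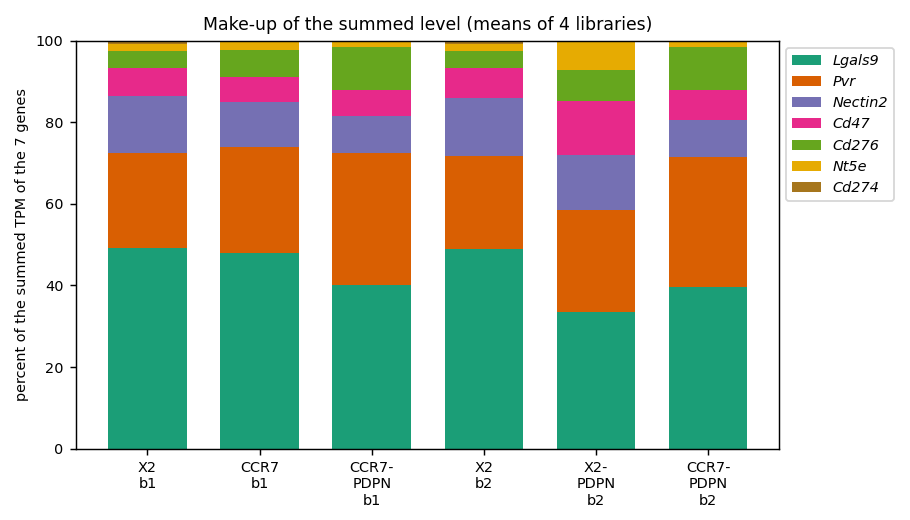
Share of each gene in the summed TPM of the 7 genes (y axis, percent), as the mean of 4 libraries for each derivative and batch (x axis). Pvr takes 23.2% in X2 and 32.5% in CCR7-PDPN of batch 1, Lgals9 falls from 49.2% to 40.0%, and Nt5e takes 6.80% in X2-PDPN.

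Lgals9, the most abundant of the 7, had 335, 320, 315 and 329 TPM in X2 of batch 1 and 334, 315, 326 and 323 TPM in X2 of batch 2. CCR7 had 249, 256, 256 and 243 TPM. CCR7-PDPN had 164, 156, 159 and 147 TPM in batch 1 and 160, 163, 150 and 153 TPM in batch 2. X2-PDPN had 151, 140, 144 and 144 TPM, so the sorted vector control cells reached a level as low as that of CCR7-PDPN. The log2 fold change against X2 was -0.37 ± 0.03 in CCR7, -1.17 ± 0.03 in X2-PDPN and -1.03 ± 0.04 and -1.03 ± 0.03 in CCR7-PDPN (edgeR adjusted p 7.9e-09, 4.7e-31, 3.0e-16 and 6.6e-30). CCR7-PDPN was 0.14 ± 0.03 higher than X2-PDPN (adjusted p 3.7e-04), with libraries of the groups overlapping. The 3 genes whose pattern over the 24 libraries was most like that of Lgals9 were Ddx58, H2-D1 and Oas3, an RNA sensor, an MHC class I gene and an antiviral synthetase (Pearson r 0.993 to 0.994 of log2 CPM relative to X2 of the batch, across 24 libraries that share cultures). Oas3 fell by 3.78 on the log2 scale in X2-PDPN against X2, and H2-D1 by 0.68.

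Nt5e, on chromosome 9 (chr9:88327197-88372092, plus strand), moved in opposite directions with PDPN. Its levels were 13.5, 12.6, 12.4 and 11.7 TPM in X2 of batch 1 and 13.3, 11.8, 13.2 and 11.6 TPM in X2 of batch 2. CCR7 had 9.34, 9.95, 9.38 and 10.1 TPM. CCR7-PDPN had 5.33, 5.08, 5.07 and 5.45 TPM in batch 1 and 4.99, 5.05, 4.71 and 5.31 TPM in batch 2, and X2-PDPN had 31.4, 28.9, 29.1 and 28.2 TPM. No library of any group reached the levels of X2-PDPN. X2-PDPN was 2.35-fold higher than X2 (log2 fold change 1.23 ± 0.04, edgeR adjusted p 2.1e-26), and CCR7-PDPN was 1.82-fold lower than CCR7 (-0.86 ± 0.06, adjusted p 1.7e-10).

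Between the PDPN-sorted derivatives, Nt5e was 5.77-fold lower in CCR7-PDPN than in X2-PDPN (-2.53 ± 0.05, edgeR adjusted p 1.5e-36). Against X2 it was -0.38 ± 0.05 in CCR7 (adjusted p 3.2e-06) and -1.24 and -1.30 in CCR7-PDPN (SE 0.06, adjusted p 3.2e-14 and 5.4e-24). The tested genes within 5 Mb of Nt5e had a median of 0.26 in CCR7 against X2, and the value of Nt5e minus that median was -0.64. Its pattern was most like those of Acta2, Emb and Clu (Pearson r 0.975 to 0.982 over 24 libraries), the first the smooth muscle actin gene. The log2 fold change of Acta2 was 0.85 for X2-PDPN against X2 and -1.03 for CCR7-PDPN against CCR7.

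Cd47, on chromosome 16 (chr16:49800533-49915010, plus strand), also split by CCR7. X2 had 43.9, 44.3, 43.6 and 44.7 TPM in batch 1 and 49.9, 49.8, 47.3 and 50.0 TPM in batch 2. CCR7 had 26.9, 33.7, 34.0 and 34.4 TPM, again with replicate 1 the lowest. CCR7-PDPN had 27.1, 24.5, 25.3 and 24.6 TPM in batch 1 and 28.9, 27.6, 30.1 and 29.5 TPM in batch 2. X2-PDPN had 60.3, 55.9, 57.9 and 53.9 TPM, above every other library. The log2 fold change against X2 was -0.46 ± 0.06 in CCR7, -0.78 ± 0.06 and -0.74 ± 0.04 in CCR7-PDPN, and 0.21 ± 0.03 in X2-PDPN (edgeR adjusted p 3.2e-06, 2.4e-09, 5.2e-22 and 1.8e-06).

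CCR7-PDPN was lower than CCR7 in Cd47 (log2 fold change -0.32 ± 0.06, edgeR adjusted p 3.8e-04), with libraries overlapping through CCR7 replicate 1. Without that library the value was -0.40 ± 0.04, and CCR7 against X2 was -0.38 ± 0.04. CCR7-PDPN was lower than X2-PDPN as well (-0.95 ± 0.04, adjusted p 4.3e-26). The rise in X2-PDPN was 0.10 after the median of the genes within 5 Mb was subtracted.

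Cd276, on chromosome 9 (chr9:58524298-58555437, minus strand), was the only gene of the 7 that rose in all 6 comparisons. It had 27.5, 27.5, 27.8 and 27.2 TPM in X2 of batch 1 and 27.5, 26.2, 27.0 and 25.3 TPM in X2 of batch 2. CCR7 had 37.6, 33.9, 35.8 and 34.8 TPM and X2-PDPN had 31.4, 33.9, 33.3 and 33.6 TPM. CCR7-PDPN had 38.7, 43.6, 40.0 and 40.0 TPM in batch 1 and 41.2, 42.5, 41.0 and 40.9 TPM in batch 2. Every library of a group lay above every X2 library of its batch, and CCR7-PDPN lay highest.

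The log2 fold change of Cd276 against X2 was 0.37 ± 0.05 in CCR7, 0.31 ± 0.04 in X2-PDPN, and 0.59 ± 0.05 and 0.66 ± 0.04 in CCR7-PDPN (edgeR adjusted p 1.2e-06, 4.8e-08, 5.3e-10 and 6.6e-18). CCR7-PDPN was higher than CCR7 by 0.22 ± 0.05 and higher than X2-PDPN by 0.35 ± 0.04 (adjusted p 6.7e-04 and 6.4e-10). After the median of genes within 5 Mb was subtracted the value was 0.36 in CCR7-PDPN against X2 of batch 1 and 0.19 in X2-PDPN against X2. The 3 genes closest in pattern were, in order, Dusp7, Anxa2 and Stat6 (Pearson r 0.980 to 0.984 over 24 libraries), and the first and second lie on chromosome 9 as Cd276 does. The median of the tested genes within 5 Mb of Cd276 was 0.12 to 0.22 on the log2 scale in the 4 comparisons with X2.

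**Figure D3:**
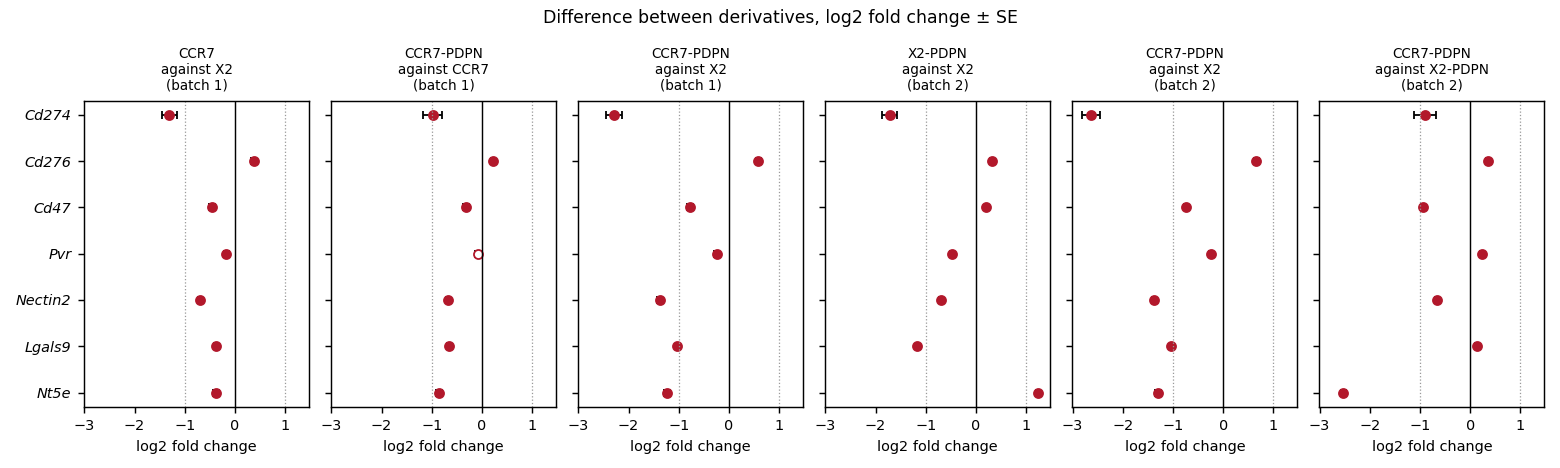
Log2 fold change of each gene (x axis) in the 6 comparisons within a batch (panels), with bars of 1 SE, filled points for an edgeR adjusted p under 0.05 and dotted lines at 1 and -1. Cd276 lies to the right of 0 in all 6 panels, and the open point is Pvr in CCR7-PDPN against CCR7.

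PDPN-sorted cells were then compared with cells low in PDPN, without and with CCR7. Without CCR7 the comparison group was the parent X2, and with CCR7 it was the PDPN-negative sort. In X2-PDPN against X2, 3 of the 7 genes rose and 4 fell (edgeR, Benjamini-Hochberg), where 28.2% and 28.5% of 13314 genes did, and 50.6% of genes had groups that did not overlap, as did 7 of the 7. In CCR7-PDPN against CCR7, 1 rose and 5 fell, where 20.9% and 20.7% of 13261 genes did, and 5 of 7 did not overlap, against 34.2% of genes. In the former Nt5e rose by more than 1 on the log2 scale, as 3.51% of genes did, and Cd274 and Lgals9 fell by more than 1, as 1.55% did. In the latter 0 of the 7 passed 1 with edgeR, where 2.60% of genes fell so far, 0 also with DESeq2, and 6 of 7 had an unadjusted p under 0.05 with each tool. Cd274 came closest there, and it passed 1 without CCR7 replicate 1 (-1.09), without CCR7-PDPN replicate 2 (-1.01) and without CCR7-PDPN replicate 4 (-1.11). In CCR7-PDPN against X2-PDPN, 3 rose and 4 fell, against 31.2% and 32.0% of genes, and 54.8% of genes did not overlap, as did 6 of the 7, and Nt5e fell by more than 1, as 6.40% of genes did. Cd274 passed 1 there as well without CCR7-PDPN replicate 3 (-1.02) or X2-PDPN replicate 2 (-1.06).

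The difference between the 2 PDPN differences was itself tested over all 24 libraries and 13690 genes. It sets batch 1 against batch 2. The comparison group was a PDPN-negative sort in batch 1 and the parent X2 in batch 2. Of the 7 genes 3 were called higher and 2 lower with CCR7, where 20.3% and 20.5% of all genes were. Nt5e differed by -2.09 ± 0.08 (edgeR adjusted p 6.0e-23) and Cd47 by -0.52 ± 0.07 (adjusted p 5.9e-07), both lower among cells with CCR7. Only Nt5e passed the limit of 1, as 4.48% of genes did downwards. The log2 values of Lgals9, Pvr and Cd274 were less negative with CCR7 than without, by 0.52 ± 0.05, 0.41 ± 0.06 and 0.74 ± 0.26 (adjusted p 2.6e-11, 8.5e-06 and 0.020). Without CCR7 replicate 1 the values for Cd47 and Pvr were -0.60 ± 0.05 and 0.33 ± 0.04. The call for Cd274 was lost without CCR7-PDPN replicate 4 of batch 1 (0.61, adjusted p 0.083) or X2-PDPN replicate 2 (0.58, adjusted p 0.070). For Cd276 the difference was -0.09, with a 95% interval of -0.21 to 0.03 (adjusted p 0.24).

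**Figure D4:**
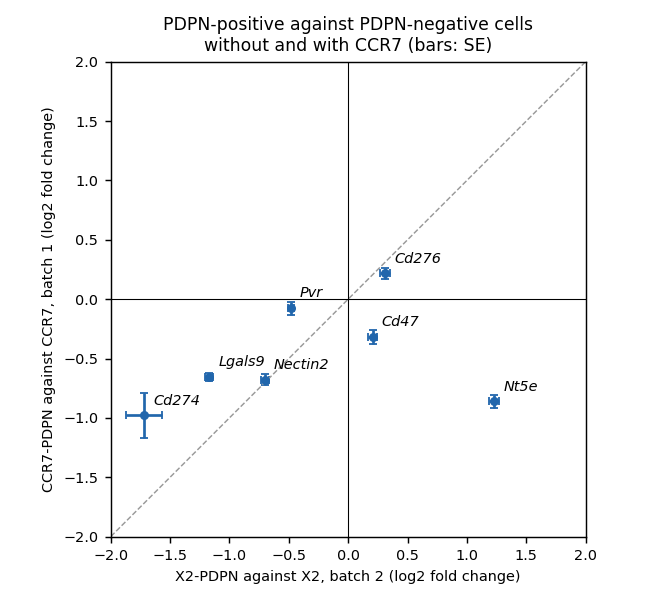
Log2 fold change of X2-PDPN against X2 (x axis, batch 2) and of CCR7-PDPN against the PDPN-negative sort CCR7 (y axis, batch 1) for the 7 genes. Bars are 1 SE and the dashed line is that of equality. Nectin2 lies on the line at about -0.7, and Nt5e lies at 1.23 without CCR7 and -0.86 with CCR7.

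Genes that act beside the 7 were followed as lists. For list genes the median of neighbouring genes was not subtracted, so changes shared by a stretch of chromosome are not set apart. Of 20 other inhibitory ligands, 10 were tested in batch 1, and in CCR7-PDPN against X2 2 rose and 6 fell (edgeR adjusted p under 0.05), where 30.3% of all genes were higher and 30.6% lower. The galectin gene Lgals3 fell from 772 to 178 TPM (log2 fold change -2.09 ± 0.04). Clec2d, a ligand of an inhibitory NK receptor, fell from 5.47 to 0.450 TPM (-3.55 ± 0.30), and the butyrophilin Btn2a2 from 1.17 to 0.241 TPM (-2.23 ± 0.37). Clec2d and Btn2a2 rest on few reads, at most 64 and 32 counts in any batch 1 library. In X2-PDPN against X2, 3 of 11 rose and 2 fell, against 28.2% and 28.5% of all genes, with Lgals3 at -0.51 ± 0.03 and Clec2d at -2.22 ± 0.25. The list's median was -0.40 in CCR7-PDPN against X2 of batch 1 and 0.01 in X2-PDPN against X2. Pdcd1lg2, the gene of the second PD-1 ligand, averaged at most 0.0157 TPM in any group of batch 1.

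Of 17 costimulatory and NK-activating ligands 7 were tested, and in CCR7-PDPN against X2 of batch 1 3 rose and 2 fell, against 30.3% and 30.6% of all genes, so the share that fell was near the background. Among the tested ligands of the activating receptor NKG2D were Raet1d, at 78.4 to 89.7 TPM, and Raet1e, at 63.4 to 78.4 TPM over the groups, and neither differed by more than 0.21 on the log2 scale in any of the 6 comparisons. Raet1d and Raet1e belong to a family of near-identical genes, so their counts are uncertain. Ulbp1, another ligand of NKG2D and named after its values were seen, rose against X2 in every derivative. It averaged 37.3 and 37.7 TPM in X2 of batches 1 and 2, 63.2 TPM in CCR7, 56.4 TPM in X2-PDPN, and 56.6 and 58.3 TPM in CCR7-PDPN. Against X2 its log2 fold change was 0.76 ± 0.04 in CCR7, 0.57 ± 0.03 in X2-PDPN, and 0.63 ± 0.04 and 0.65 ± 0.03 in CCR7-PDPN (edgeR adjusted p 2.6e-13, 1.3e-19, 3.9e-12 and 6.3e-22).

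The adenosine list held 20 genes besides Nt5e, and 13 were tested. In X2-PDPN against X2 5 rose and 4 fell, against 28.2% and 28.5% of all genes, and in CCR7-PDPN against X2 of batch 1 3 rose and 6 fell, against 30.3% and 30.6%. The 4 that fell in the former and the 3 that rose in the latter were thus near or under the background share. Panx1, a channel that releases ATP, fell in X2-PDPN against X2 (-1.04 ± 0.08), where Nt5e rose, and in CCR7-PDPN against CCR7 (-0.71 ± 0.08). Pnp, which breaks down inosine, fell in CCR7 against X2 (-1.01 ± 0.05) and its value in X2-PDPN against X2 was -0.04 ± 0.05. Whether genes near Pnp fell with it was not tested. Entpd1 (CD39), which supplies CD73 with AMP, averaged at most 0.0223 TPM in batch 1, whereas the related Entpd2 averaged 133 to 180 TPM.

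The list of genes that control Cd274 held 27, all of them tested. In CCR7-PDPN against X2 of batch 1 12 rose and 8 fell, against 30.3% and 30.6% of all genes, and in X2-PDPN against X2 5 rose and 7 fell, against 28.2% and 28.5%. Only the 12 that rose exceeded the background share, and the list medians were 0.10 and 0.01. Cmtm4, which stabilises PD-L1 protein, rose by 0.93 ± 0.04 in CCR7 and by 0.86 ± 0.04 in CCR7-PDPN of batch 1 against X2, and fell by 0.15 ± 0.03 in X2-PDPN. It was not set against its neighbours on the chromosome, so a rise shared by the region was not tested. In the Cd47 list 5 of 7 genes were tested. Thbs2, which encodes a thrombospondin, a family of CD47 ligands, rests on few reads, at most 88 counts in any batch 1 library. It was at 1.42 TPM in CCR7 and 0.0600 TPM in CCR7-PDPN (-4.47 ± 0.25) but rose in X2-PDPN against X2 (0.69 ± 0.12). Lrp1, an engulfment receptor, rose from 66.8 to 121 TPM in X2-PDPN against X2 (0.85 ± 0.12), and in CCR7-PDPN against X2 of batch 1 1 gene of the list rose and 3 fell, against 30.3% and 30.6% of all genes.

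The receptors of these ligands should be rare in tumour cells, and of 15 receptor genes 3 were tested in each batch. One of them, Tigit, the inhibitory receptor of Pvr and Nectin2 on T and NK cells, was listed at a level close to that of its ligands. It was singled out after its values were seen. Tigit had 649 to 743 counts a library in X2 of batch 1, 426 to 505 for CCR7 and 515 to 542 for CCR7-PDPN. Batch 2 had 625 to 754 counts for X2, 728 to 959 for X2-PDPN and 403 to 558 for CCR7-PDPN. As group means these were 100 TPM in X2, 68.3 TPM in CCR7 and 69.9 TPM in CCR7-PDPN of batch 1, and 97.5, 109 and 69.9 TPM for X2, X2-PDPN and CCR7-PDPN of batch 2.

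The other 14 receptor genes had at most 16 counts in any batch 1 library, and Cd226 and Cd96, which share ligands with Tigit, had 0 in all 12. Pvrig, a receptor of Nectin2, reached 3.44 TPM in X2-PDPN against 1.22 TPM in X2 (log2 fold change 1.47 ± 0.28). Against X2 the log2 fold change of Tigit was -0.57 ± 0.07 in CCR7, -0.49 ± 0.07 and -0.46 ± 0.05 in CCR7-PDPN, and 0.15 ± 0.05 in X2-PDPN (edgeR adjusted p 6.3e-07, 2.2e-06, 8.3e-11 and 0.0049). Between CCR7-PDPN and CCR7 its value was 0.07 ± 0.07 (adjusted p 0.46). The gene lies at chr16:43648867-43664146 on the minus strand, has an exonic length of 919 bases in the table, and 0 other listed genes overlap it. Counts per gene do not show which exons carry the reads, so a transcript that encodes the receptor is not shown by these values.

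**Figure D5:**
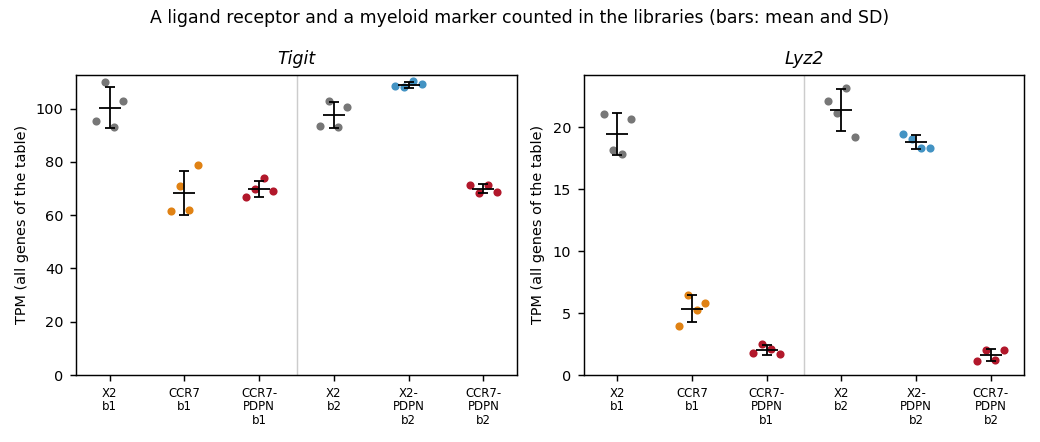
Level in TPM over all genes of the table (y axis, from 0) of the receptor gene Tigit and of the myeloid marker Lyz2 in each library, by derivative and batch (x axis), with bars for the mean and SD of 4 libraries. Tigit lies at 68.3 to 109 TPM as group means in every derivative, and Lyz2 at 19.4 TPM in X2 and 2.01 TPM in CCR7-PDPN of batch 1.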

How the data were processed

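Polyadenylated RNA of 4 EO771 derivatives was sequenced in 24 libraries and 2 batches (stranded libraries, single-end reads of 75 bp). Per the labels and the file headers, the authors mapped reads to GRCm38. The deposited values are raw counts for each Ensembl gene, neither normalised nor pooled. The aligner and the strand setting of the counting are not given in the sources used here. The batch 2 table lists 13915 genes, by a filter that is not stated. Replicates are technical, and none agreed within sampling noise (chi-square per degree of freedom of at least 2.07).

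Each batch was fitted on its own, over its 3 groups, by robust quasi-likelihood in edgeR 4.0.16 (R 4.3.3) after filterByExpr and TMM scaling, with Benjamini-Hochberg adjustment. Both differences of differences were fitted over all 6 groups. Genes were called at adjusted p under 0.05 and, as a second rule, also with an absolute log2 fold change above 1. The SE is the size of the fold change (log2) divided by the root of the F statistic. Log2 CPM used a prior count of 2, and TPM the exonic lengths in the tables. Tables were made with Python 3.11.15 and pandas 2.3.3. The test was run on simulated data with known changes.

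The members and lists were chosen with earlier results of these data known. Named beside the members were list genes past both limits in a comparison with a group mean of at least 1 TPM (at most 8 a list, otherwise the 2 highest) and the 3 genes most like each member in pattern, among genes whose mean log2 CPM reached 1. Alternatives were upper-quartile or RLE scaling, DESeq2 1.42.0, no filter or one of 1 CPM in 4 libraries, fits of 2 groups, a replicate block, TPM over all genes, CPM, subtraction of the median of genes within 5 Mb, and each library left out. Results of some list genes are not reported here.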

Additional observations from a re-analysis of the deposited data

Results flagged for a closer look

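Of the 42 sets of 4 libraries (7 genes in 6 groups), 5 held a library far from the other 3 by Dixon's criterion at 95%, where chance gives about 1 in 20. These were Cd274 at 5.04 TPM in X2 replicate 2 of batch 2, Cd276 at 42.5 TPM in CCR7-PDPN replicate 2 of batch 2, Cd47 at 26.9 TPM in CCR7 replicate 1 of batch 1, Cd47 at 47.3 TPM in X2 replicate 3 of batch 2 and Pvr at 148 TPM in X2 replicate 2 of batch 2. The Cd47 value in CCR7 is the furthest from its group in size, and the same library had the lowest Pvr of its group.

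The PDPN differences with and without CCR7 were called unlike for 5 genes in edgeR, where 20.3% of 13690 genes were called higher and 20.5% lower. The log2 values were -2.09 for Nt5e, -0.52 for Cd47, 0.52 for Lgals9, 0.41 for Pvr and 0.74 for Cd274. The call for Cd274 was lost without single libraries, as given above. The cells with CCR7 came from batch 1 and those without from batch 2. The comparison group was a PDPN-negative sort with CCR7 and the parent X2 without. The part of batch and sort beyond the subtraction of these groups was not tested.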

How the results depend on the processing

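Under other factors, filters, tools and sets of libraries, 293 of 294 fold changes of the 7 genes in the 6 comparisons kept their direction and their side of the threshold, and with each library left out 502 of 504 did. The exceptions were those of Pvr given above. The replicate numbers did not pair the libraries (correlations of -0.12 to 0.05 in batch 1 and -0.04 to 0.11 in batch 2 for the same number), and with a replicate block no call changed, for example -1.30 for Cd274 in CCR7 against X2. Leaving out 1 library, the number of the 7 genes lower past 1 ranged from 0 to 1 in CCR7-PDPN against CCR7 and from 1 to 2 in CCR7-PDPN against X2-PDPN. In the latter Cd274 was the second gene, without CCR7-PDPN replicate 3 or X2-PDPN replicate 2. The differences near 0 changed sign, from -0.0049 to 0.055 for Nectin2 between the PDPN differences, and between batches from -0.020 to 0.022 for Pvr, -0.036 to 0.024 for Nectin2 and -0.015 to 0.033 for Lgals9, and Pvr was -0.00064 between batches with at least 1 CPM in 4 libraries.

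Counts over all genes moved with the filter, which changes the genes tested. Without one, 658 genes were lower past 1 in CCR7 against X2 and 1176 in CCR7-PDPN against X2 of batch 1, against 422 and 711. With at least 1 CPM in 4 libraries, 286 were higher and 262 lower in CCR7 against X2, 46 and 213 in CCR7-PDPN against CCR7, 284 and 136 in X2-PDPN against X2, 564 lower in CCR7-PDPN against X2-PDPN and 393 lower between the PDPN differences. Subtracting the median of neighbouring genes, which lay between -0.09 and 0.26, reversed none of the 42 fold changes but changed many of them in size. Cd276 in CCR7-PDPN against X2 of batch 1 went from 0.59 to 0.36. Cd47 in CCR7-PDPN against X2-PDPN went from -0.95 to -1.09, past the limit of 1. Depth limits Cd274 most, with 14 to 34 counts a library in CCR7-PDPN.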
